A study of Mus musculus with 6 samples.

Results

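Growth hormone, the receptors that drive or restrain its release, the somatotroph transcription factor POU1F1 and the protease PAPPA2 were followed in bulk RNA-seq of the mouse pituitary gland. The 9 genes (GH1, GHRHR, GHSR, POU1F1, PAPPA2, SSTR1, SSTR2, SSTR3 and SSTR5) were taken by symbol from a table of 16736 rows; all 9 were present on a single row, and all 9 were among the 13873 rows that passed the filter on low counts. The tissue came from male mice labelled HFD (3 libraries) and male mice labelled RD (3 libraries), both fasted for 16 h and then fed for 4 h before the gland was taken. HFD and RD are given only as abbreviations, without strain, age or batch. Whether the 3 libraries of a diet are 3 animals is not stated, so the p-values speak only for the spread among these libraries, part of which could be technical. Obesity is the setting named in the series title.

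Growth hormone is made by the somatotrophs of the anterior pituitary. Hypothalamic growth hormone-releasing hormone acts through its receptor GHRHR and cyclic AMP to raise growth hormone synthesis and release, ghrelin acts through the secretagogue receptor GHSR and calcium, and somatostatin acts through receptors coupled to inhibitory G proteins (SSTR1 to SSTR5) to hold release down. POU1F1 (PIT-1) is the POU-homeodomain factor that switches on the growth hormone, prolactin, thyrotropin beta and GHRHR genes, and its own gene. Growth hormone raises IGF1, which feeds back on the gland, and PAPPA2 frees IGF from its binding proteins IGFBP3 and IGFBP5.

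Transcripts of GH1, POU1F1 and PAPPA2 were lower in HFD than in RD pituitaries, at 0.56, 0.56 and 0.62 of the RD level. No receptor gene passed the test, although SSTR2 had the largest estimated change of the 9. In all, 3 of the 9 genes were called lower and 0 higher (edgeR's quasi-likelihood test, Benjamini-Hochberg adjusted p under 0.05 over all tested genes), where 4.61% of all tested genes were called lower and 5.87% higher. HFD and RD libraries were fully apart for 4 of the 9 genes, where 32.5% of tested genes did not overlap. Since the genes were chosen with earlier results of these data known, these shares describe the genes and are not a test of them.

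Promoter windows were found for 5 of the 9 genes (Ghsr, Pou1f1, Pappa2, Sstr2 and Sstr3) in a RefSeq table on GRCm38.p6, each running from 250 bases before a start site to 50 bases after it. Exact matches on both strands were sought to TATNCAT (a core of the POU1F1 site), AGGTCA (the core site of thyroid hormone and related nuclear receptors) and TGACGTCA (the palindromic cyclic AMP response element). Of 32851 windows of this length in the table, 8.84% held TATNCAT, 16.3% AGGTCA and 1.79% TGACGTCA. The 250 bases before the start are shown for Pou1f1 and Pappa2, whose transcripts were called lower, and for Sstr2, which had the largest estimate. They are read 5′ to 3′ on the strand of the gene, with the motif match in capitals. The windows are chr16:65520262-65520511 on the plus strand for Pou1f1, chr1:158958176-158958425 on the minus strand for Pappa2 and chr11:113619077-113619326 on the plus strand for Sstr2.
Pou1f1: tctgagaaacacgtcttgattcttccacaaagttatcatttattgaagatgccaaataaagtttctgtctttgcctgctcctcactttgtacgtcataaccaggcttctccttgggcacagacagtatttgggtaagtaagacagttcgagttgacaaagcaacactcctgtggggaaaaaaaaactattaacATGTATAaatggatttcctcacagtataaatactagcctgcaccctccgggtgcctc
Pappa2: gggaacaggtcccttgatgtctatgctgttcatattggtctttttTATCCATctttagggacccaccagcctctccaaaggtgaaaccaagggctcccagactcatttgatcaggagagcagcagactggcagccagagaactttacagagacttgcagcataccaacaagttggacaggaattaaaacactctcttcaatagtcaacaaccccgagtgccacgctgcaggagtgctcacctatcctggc
Sstr2: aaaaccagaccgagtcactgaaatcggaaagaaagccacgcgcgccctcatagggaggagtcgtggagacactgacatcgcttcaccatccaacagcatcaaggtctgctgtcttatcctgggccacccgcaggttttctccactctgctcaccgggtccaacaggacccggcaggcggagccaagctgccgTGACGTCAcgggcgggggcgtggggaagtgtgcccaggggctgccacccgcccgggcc
Pou1f1 held TATNCAT on the opposite strand (read as ATGTATA) at positions -57 to -51, and again at 13 to 19, where the start site is position 1 and the base before it is -1. Pappa2 held TATCCAT at -205 to -199, before a RefSeq start that lies inside the Pappa2 gene of GENCODE. Sstr2 held the palindrome TGACGTCA at -58 to -51. Of the windows not shown, Ghsr held AGGTCA on the opposite strand at -91 to -86, and neither Sstr3 window nor a further Pou1f1 window held any of the 3 motifs. A match describes the letters only.

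GH1 encodes growth hormone (mouse Gh, chromosome 11 of mm10, 106300271 to 106301865, minus strand). Its level was 39506, 36569 and 37883 CPM in HFD replicates 1, 2 and 3, against 58896, 71584 and 71455 CPM in RD replicates 1, 2 and 3 (CPM, counts per 1e+06 listed counts, scaled by TMM). Every HFD library was below every RD library, and the gap between the groups was wider than the spread within either. HFD was lower by a log2(HFD/RD) of -0.83 ± 0.07 (SE; adjusted p = 0.00061), the 7th smallest p of all tested genes. In raw counts GH1 took 4.016%, 3.745% and 3.905% of the HFD libraries and 5.869%, 7.003% and 6.831% of the RD libraries (two-sided exact permutation p = 0.1, the smallest that 3 against 3 allows). In RNA from a whole gland, fewer somatotrophs and less of a transcript per somatotroph cannot be told apart.

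POU1F1 (chromosome 16, 65520511 to 65535005, plus strand) stood at 298, 246 and 276 CPM in HFD replicates 1, 2 and 3 and at 431, 498 and 541 CPM in RD replicates 1, 2 and 3. The groups were again apart, and RD replicate 1 was the lowest RD library, as for GH1. This gave a log2(HFD/RD) of -0.84 ± 0.10 (adjusted p = 0.0014). Exons of Pou1f1 overlap those of a noncoding gene on the other strand, Gm49631, and the sources used here do not say whether strand was used in counting. Within each library, GH1 and POU1F1 kept close to one ratio: the log2 of GH1 over POU1F1 counts was 7.12 ± 0.08 in HFD and 7.10 ± 0.06 in RD (SD, n = 3 each). The difference of 0.02 was smaller than the spread within a group (exact permutation p = 0.6, adjusted 0.68 over the 9 ratios computed), and it turned to -0.01 without RD replicate 3 and to -0.03 without HFD replicate 2.

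PAPPA2 (chromosome 1, 158711727 to 158980490, minus strand) had 187, 154 and 154 CPM in HFD replicates 1, 2 and 3, against 212, 275 and 307 CPM in RD replicates 1, 2 and 3. The groups did not overlap, but HFD replicate 1 and RD replicate 1 lay near each other. Its log2(HFD/RD) was -0.68 ± 0.13 (adjusted p = 0.011). PAPPA2 no longer passed once HFD replicate 2 (adjusted p = 0.063) or HFD replicate 3 (adjusted p = 0.069) was left out. Exons of Pappa2 overlap a noncoding gene on the same strand, 1600012P17Rik. Reads from the shared bases could belong to either gene, and the sources used here do not say how they were counted.

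**Figure D1:**
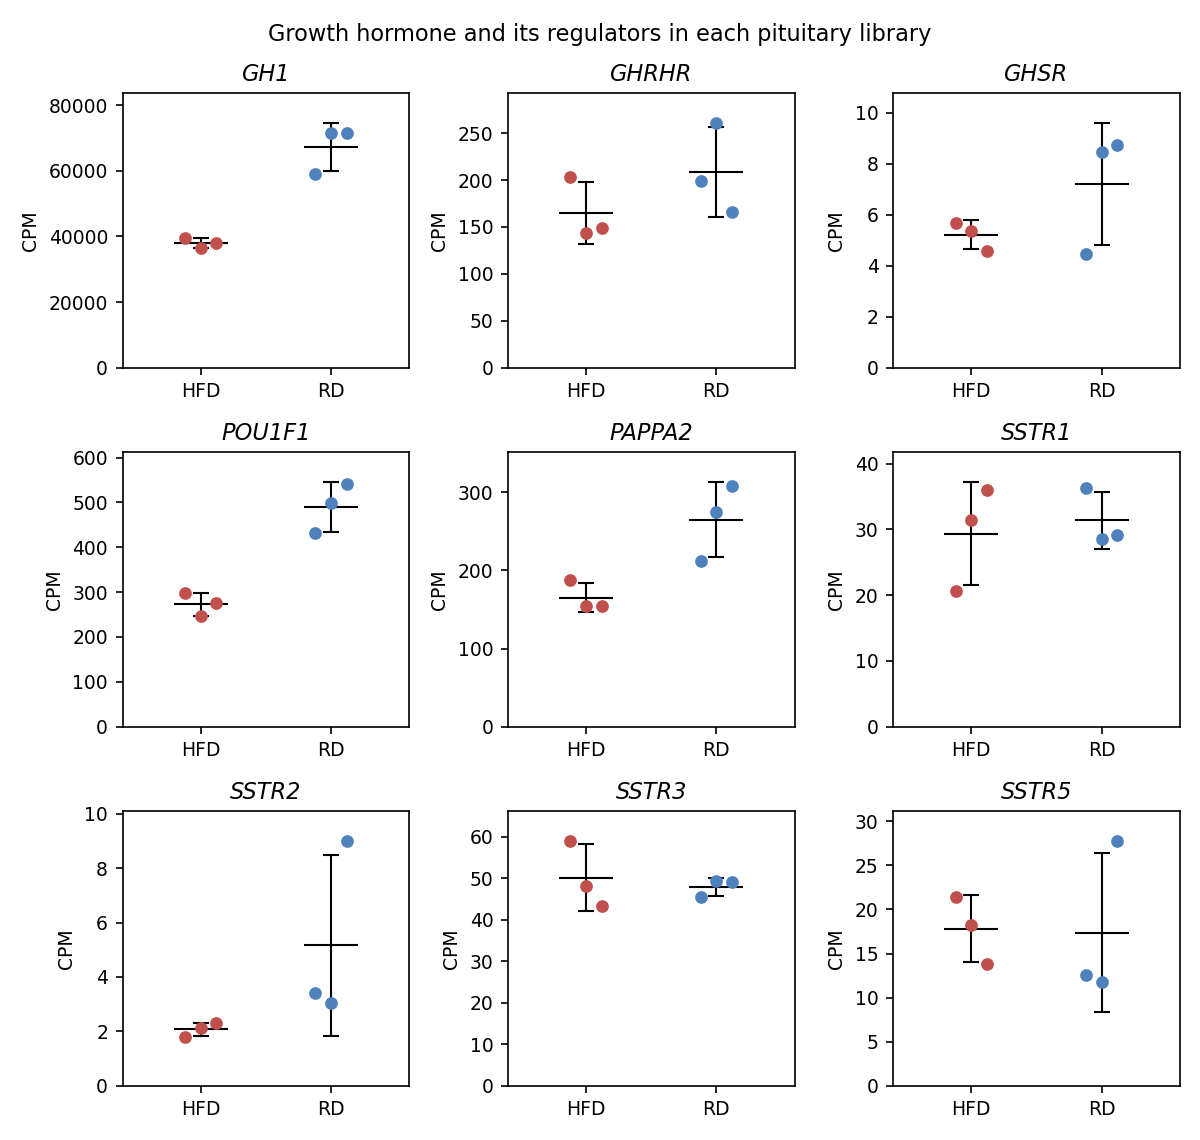
TMM-scaled CPM of each of the 9 genes in the HFD libraries (left) and the RD libraries (right), with a linear axis from 0 in every panel. Points are libraries in replicate order, bars the mean and SD (n = 3 each); GH1, POU1F1, PAPPA2 and SSTR2 show no overlap between the groups, and RD replicate 3 lies far above the other RD libraries for SSTR2 and SSTR5.

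The receptors for the 2 stimulatory hormones did not pass the test. GHRHR, the receptor for growth hormone-releasing hormone (chromosome 6, 55376295 to 55388530), was at 203, 143 and 149 CPM in HFD replicates 1, 2 and 3 and at 199, 261 and 165 CPM in RD replicates 1, 2 and 3. The groups overlapped, since HFD replicate 1 was above RD replicates 1 and 3. GHRHR had a log2(HFD/RD) of -0.34 ± 0.17 (adjusted p = 0.24). Without RD replicate 2 it was -0.15, and without HFD replicate 1 it was -0.51. GHSR, the ghrelin receptor (chromosome 3, 27371351 to 27378010), was at 5.69, 5.36 and 4.59 CPM in HFD replicates 1, 2 and 3 and at 4.46, 8.46 and 8.72 CPM in RD replicates 1, 2 and 3, on 68 to 151 counts a library. RD replicate 1 was the lowest of all 6 libraries and the other RD libraries were the highest. Over all libraries its log2(HFD/RD) was -0.47 ± 0.26 (adjusted p = 0.29), and without RD replicate 1 it was -0.73 and passed (adjusted p = 0.042). It was -0.35 without RD replicate 2 (adjusted p = 0.51) and -0.31 without RD replicate 3 (adjusted p = 0.55).

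The ratio of GH1 to GHRHR was lower in each HFD library than in any RD library. The log2 of GH1 over GHRHR counts was 7.86 ± 0.22 in HFD and 8.35 ± 0.35 in RD (SD, n = 3 each; difference -0.49, exact permutation p = 0.1, adjusted 0.15), a size of p that this design cannot go below. Without RD replicate 3 the difference was -0.29 and without HFD replicate 1 it was -0.36 (exact permutation p = 0.3 for each). The log2 of GHRHR over GHSR counts was 4.97 ± 0.21 in HFD and 4.89 ± 0.62 in RD, and the groups overlapped (difference 0.08, exact permutation p = 0.8). That difference turned to -0.24 without RD replicate 3 and to -0.01 without HFD replicate 1.

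Among the somatostatin receptors, SSTR2 (chromosome 11, 113619342 to 113626028) had the lowest counts of the 9 genes. It stood at 1.80, 2.10 and 2.30 CPM in HFD replicates 1, 2 and 3 and at 3.42, 3.06 and 9.01 CPM in RD replicates 1, 2 and 3, on 26 to 34 counts in HFD and 47 to 156 counts in RD. The groups did not overlap, and RD replicate 3 was 2.95 times the lowest RD library. The log2(HFD/RD) was -1.32 ± 0.42 and missed the threshold (adjusted p = 0.073). DESeq2 called it (adjusted p = 0.016), and so did edgeR without RD replicate 1 (0.045) or RD replicate 2 (0.048), whereas without RD replicate 3 the log2 change was -0.65 (adjusted p = 0.21).

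SSTR1, SSTR3 and SSTR5 overlapped between the diets. SSTR1 (chromosome 12, 58211772 to 58214444) had 20.7, 31.4 and 36.0 CPM in HFD replicates 1, 2 and 3 and 36.3, 28.6 and 29.2 CPM in RD replicates 1, 2 and 3, a log2(HFD/RD) of -0.09 ± 0.18. SSTR3 (chromosome 15, 78537008 to 78544685), a receptor known from neuronal primary cilia, had 59.0, 48.1 and 43.3 CPM in HFD replicates 1, 2 and 3 and 45.4, 49.3 and 49.0 CPM in RD replicates 1, 2 and 3, a log2(HFD/RD) of 0.06 ± 0.11. In both genes HFD replicate 1 stood apart from the other HFD libraries, low in SSTR1 and high in SSTR3. SSTR5 (chromosome 17, 25489875 to 25497288) had 21.4, 18.2 and 13.8 CPM in HFD replicates 1, 2 and 3 and 12.6, 11.7 and 27.8 CPM in RD replicates 1, 2 and 3, a log2(HFD/RD) of 0.03 ± 0.31. The adjusted p-values of these 3 genes ran from 0.76 to 0.96. The SSTR5 estimate moved with single libraries: without RD replicate 3 the log2(HFD/RD) was 0.55 (adjusted p = 0.083), and it turned to -0.16 without RD replicate 1, -0.19 without RD replicate 2 and -0.12 without HFD replicate 1. SSTR4, the remaining receptor of the family, had 12 to 16 counts in HFD and 21 to 40 counts in RD. Its groups did not overlap, but it was not called (log2(HFD/RD) -0.84 ± 0.35, adjusted p = 0.16).

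SSTR2 and SSTR5 were both highest in RD replicate 3, and their ratio did not overlap between the diets. The log2 of SSTR2 over SSTR5 counts was -3.57, -3.11 and -2.59 in HFD replicates 1, 2 and 3 and -1.88, -1.94 and -1.62 in RD replicates 1, 2 and 3. The difference was -1.28 (exact permutation p = 0.1, adjusted 0.15), and with a library left out it ran from -1.53 to -1.04. The SSTR1 to SSTR2 and SSTR3 to SSTR2 ratios were higher in HFD by 1.02 and 1.20 on the log2 scale without overlap (exact permutation p = 0.1 for each, adjusted 0.15). Both ratios rest in part on RD replicate 3, without which the differences were 0.48 and 0.72. The GHRHR to SSTR2 ratio overlapped between the groups (difference 0.82, exact permutation p = 0.4, adjusted 0.51), and its difference was 0.17 without RD replicate 3 and 1.28 without RD replicate 2.

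**Figure D2:**
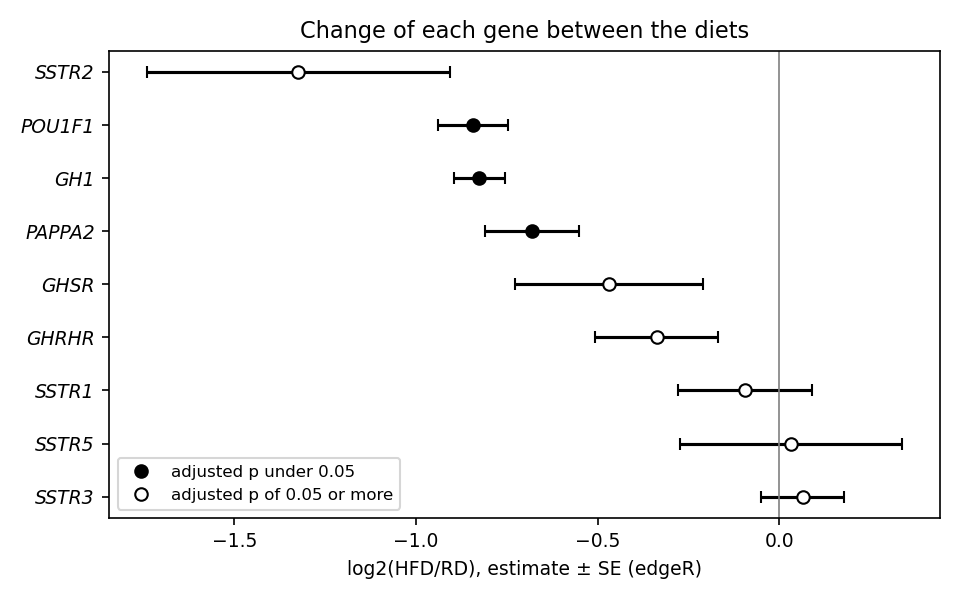
The log2(HFD/RD) of each of the 9 genes with its standard error from edgeR, ordered by value. Filled points (POU1F1, GH1 and PAPPA2) have an adjusted p under 0.05; SSTR2 has the lowest estimate, -1.32, with an SE of 0.42, and SSTR1, SSTR3 and SSTR5 lie near 0.

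Levels of different genes were compared as CPM per kb of annotated exon. GH1 was first at 44067 ± 1707 in HFD and 78088 ± 8456 in RD, then POU1F1 at 70.2 ± 6.64 in HFD and 126 ± 14.3 in RD (SD, n = 3 each). GHRHR followed at 47.3 ± 9.43 in HFD and 59.8 ± 13.9 in RD, and PAPPA2 at 16.0 ± 1.84 in HFD and 25.7 ± 4.69 in RD, and none of these 4 overlapped a neighbour among them in either diet. Of the somatostatin receptors, SSTR1 (14.4 ± 3.85 in HFD and 15.3 ± 2.10 in RD) and SSTR3 (11.6 ± 1.86 in HFD and 11.1 ± 0.51 in RD) were the highest per kb. These neighbours overlapped in HFD, and in RD the lowest SSTR1 library (14.0) was above the highest SSTR3 library (11.4). PAPPA2 and SSTR1 also overlapped in HFD but not in RD. SSTR5 came next at 6.52 ± 1.39 in HFD and 6.35 ± 3.30 in RD, below every SSTR3 library in either diet, though in RD by a narrow margin (10.2 for the highest SSTR5 library and 10.5 for the lowest SSTR3 library). GHSR (1.18 ± 0.13 in HFD and 1.63 ± 0.54 in RD) and SSTR2 (0.97 ± 0.12 in HFD and 2.41 ± 1.56 in RD) were the lowest of the 9, changed places between the diets and overlapped in both. SSTR4 was below them in mean at 0.67 ± 0.09 in HFD and 1.20 ± 0.36 in RD. With the longest transcript in place of all exons the order was the same.

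**Figure D3:**
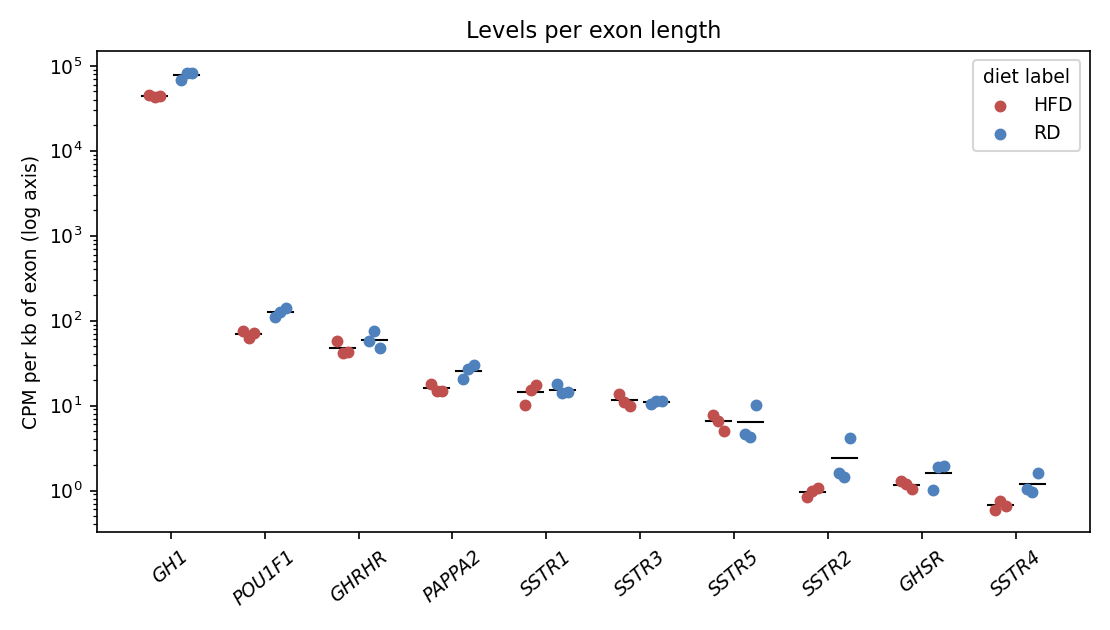
CPM per kb of annotated exon (log axis) for the 9 genes and SSTR4, HFD left of RD within each gene. Points are libraries and lines the mean of 3; GH1 lies near 44067 in HFD and 78088 in RD, and GHSR and SSTR2 lie near 1 to 4.

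The somatotroph output was then set beside that of its sister lineages, which depend on the same POU1F1. PRL, the prolactin gene, was at 10914 ± 1314 CPM in HFD and 14476 ± 760 CPM in RD, and TSHB, the thyrotropin beta gene, at 287 ± 6.63 CPM in HFD and 139 ± 38.8 CPM in RD. The thyrotropin-releasing hormone receptor gene TRHR rose as well (log2(HFD/RD) 0.53 ± 0.14, adjusted p = 0.039). Over GH1, PRL, TSHB, GHRHR and TRHR, 2 rose and 2 fell, where 5.87% of all tested genes were called higher and 4.61% lower. The log2 of GH1 over PRL counts was 1.81 ± 0.22 in HFD and 2.21 ± 0.09 in RD, and that of GH1 over TSHB counts 7.05 ± 0.08 in HFD and 8.96 ± 0.29 in RD. The groups did not overlap in either ratio, with differences of -0.41 and -1.91 (exact permutation p = 0.1 for each, adjusted 0.15). For GH1 over PRL the margin was narrow, with 2.05 in HFD replicate 1 and 2.11 in RD replicate 1. Of these calls, PRL missed the threshold when HFD replicate 2 was left out (adjusted p = 0.056), and TRHR was called in 1 of 6 fits with a library left out (adjusted p up to 0.14).

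Among transcription factors of the POU1F1 lineage and of the growth hormone gene, more rose than fell. Of 20 listed genes, 19 were tested, 6 rose, 1 fell and 12 did not pass (36.8% called, against 10.5% of all tested genes in either direction). By direction, 5.87% of all tested genes were called higher and 4.61% lower. The LIM-homeodomain gene LHX3 (log2(HFD/RD) 0.31 ± 0.08), the zinc finger gene ZBTB20 (0.23 ± 0.05), the ETS-family gene ETS1 (0.31 ± 0.07) and the thyroid hormone receptor gene THRA (0.40 ± 0.08) rose. THRB, the other thyroid hormone receptor gene, fell to 165 ± 3.44 CPM in HFD, against 308 ± 94.2 CPM in RD (-0.90 ± 0.17, adjusted p = 0.011). The glucocorticoid receptor gene NR3C1 (-0.12 ± 0.18) and SP1 (-0.03 ± 0.07) did not pass. The median log2(HFD/RD) of the list was 0.19, against 0.00 for all tested genes. None of the 7 calls was made in every fit with a library left out, and the number called was 1 when HFD replicate 1 was left out and 0 when either of the other HFD libraries was.

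In the cyclic AMP arm below GHRHR, 1 of 29 tested genes rose and 1 fell (6.90% called, against 10.5% of all tested genes). PRKAR1B, a regulatory subunit of protein kinase A, was at 137 ± 5.67 CPM in HFD and 178 ± 23.3 CPM in RD (log2(HFD/RD) -0.39 ± 0.09, adjusted p = 0.028). PDE4D, a phosphodiesterase that breaks down cyclic AMP, was at 213 ± 9.81 CPM in HFD and 173 ± 18.1 CPM in RD (0.30 ± 0.08, adjusted p = 0.048). GNAS, which encodes the stimulatory G protein alpha subunit and was the most abundant gene of the list, was at 4927 ± 81.6 CPM in HFD and 4855 ± 140 CPM in RD (0.02 ± 0.04), and PRKAR1A had a log2(HFD/RD) of -0.16 ± 0.06 (adjusted p = 0.14). The median of the list was -0.01. PRKAR1B was not called without any one of the HFD libraries (adjusted p up to 0.10), and PDE4D was called only without RD replicate 1 among the fits with a library left out (otherwise adjusted p up to 0.15) and not with DESeq2's size factors (0.052).

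In the Gq and calcium arm below GHSR, 1 of 16 genes rose (6.25%, against 5.87% of all tested genes called higher). This was CACNA1D, a subunit of L-type calcium channels, at 389 ± 19.0 CPM in HFD and 320 ± 23.8 CPM in RD (log2(HFD/RD) 0.28 ± 0.07, adjusted p = 0.036). The IP3 receptor gene ITPR1 (-0.01 ± 0.06) and the protein kinase C gene PRKCE (0.24 ± 0.07, adjusted p = 0.070) did not pass, and the median of the list was 0.04. CACNA1D was called in 2 of 6 fits with a library left out (adjusted p up to 0.13). With library totals as the only scaling 3 genes of the list were called, and with upper-quartile scaling 2.

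Genes of the inhibitory arm below the somatostatin receptors included larger changes. Of 14 genes, with SSTR4 counted among them, 3 rose and 1 fell (28.6% called, against 10.5% of all tested genes). GNAI1, an inhibitory G protein alpha subunit, fell to 18.1 ± 5.66 CPM in HFD, against 44.3 ± 4.25 CPM in RD (log2(HFD/RD) -1.29 ± 0.20, adjusted p = 0.0050). The alpha subunit gene GNAZ rose (0.32 ± 0.09, adjusted p = 0.045). KCNJ9 and KCNJ5 encode subunits of the potassium channels that inhibitory G proteins open. KCNJ9 was at 8.92 ± 1.21 CPM in HFD and 3.59 ± 0.88 CPM in RD (1.31 ± 0.22, adjusted p = 0.0073). KCNJ5 was at 1.21 ± 0.16 CPM in HFD and 0.22 ± 0.09 CPM in RD (2.39 ± 0.47, adjusted p = 0.013). With 16 to 20 counts in HFD and 2 to 5 counts in RD, KCNJ5 passed the filter on low counts through HFD alone. It was thus tested only because it was high in HFD, and its call is part of the 28.6%. Of the other channel subunits listed, KCNJ3 was at 82.8 ± 8.84 CPM in HFD and 114 ± 36.3 CPM in RD (-0.47 ± 0.20, adjusted p = 0.18). Without RD replicate 3 KCNJ3 passed as lower (adjusted p = 0.0011). KCNJ6 (0.32 ± 0.10, adjusted p = 0.073) passed as higher without RD replicate 1 (adjusted p = 0.019) and with DESeq2 (0.04). GNAO1 (0.10 ± 0.06) and PTPN11 (-0.12 ± 0.06) did not pass, and the median of the list was -0.01. GNAI1 and KCNJ9 were called in every fit with a library left out. Leaving out HFD replicate 1 (adjusted p = 0.051) or 3 (0.051) ended the call of KCNJ5, and GNAZ was called in 1 of the 6 (otherwise adjusted p up to 0.17) and not without the filter on low counts (0.050).

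In the list of growth hormone and IGF feedback, 24 of 26 genes were tested, 3 rose, 3 fell and 18 did not pass (25% called, against 10.5% of all tested genes). PAPPA, the relative of PAPPA2 that cleaves IGFBP4, fell to 21.0 ± 2.09 CPM in HFD, against 53.9 ± 20.3 CPM in RD (log2(HFD/RD) -1.36 ± 0.22, adjusted p = 0.0066). IGF2R, the receptor that clears IGF2, fell as well (-0.61 ± 0.09, adjusted p = 0.0046), as did PTPN1, a phosphatase of JAK2 and the insulin receptor (-0.54 ± 0.12, adjusted p = 0.024). IGF1 transcripts of the gland rose 2.15-fold (log2(HFD/RD) 1.10 ± 0.22, adjusted p = 0.013). IGFBP5, a substrate of PAPPA2, rose (0.26 ± 0.06, adjusted p = 0.019), as did CISH, a suppressor of cytokine signalling induced by STAT5 (0.44 ± 0.09, adjusted p = 0.018). IGF1R (-0.18 ± 0.06, adjusted p = 0.075) and INSR (-0.13 ± 0.08, adjusted p = 0.32) did not pass, and the median of the list was -0.06. PAPPA and IGF2R were called in every fit with a library left out. Leaving out HFD replicate 1 or 3 ended the calls of IGF1 and CISH (adjusted p up to 0.059 and 0.069), leaving out HFD replicate 2 or 3 that of PTPN1 (0.12), and leaving out RD replicate 2 or either of HFD replicates 2 and 3 that of IGFBP5 (0.10).

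The ligands themselves were scarce in the gland. GHRL, which encodes ghrelin, was at 6.78 ± 0.36 CPM in HFD and 4.73 ± 0.66 CPM in RD, without overlap but not called (log2(HFD/RD) 0.52 ± 0.18, adjusted p = 0.11). LEAP2, an antagonist of GHSR, was at 3.29 ± 0.68 CPM in HFD and 3.58 ± 0.90 CPM in RD (-0.12 ± 0.28). GHRH, MBOAT4 (the enzyme that acylates ghrelin), SST and CORT were under the filter and were not tested. SST, the somatostatin gene, had 0, 0 and 2 counts in HFD replicates 1, 2 and 3 and 0 counts in each RD library, where 3 counts correspond to between 0.17 and 0.21 CPM.

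**Figure D4:**
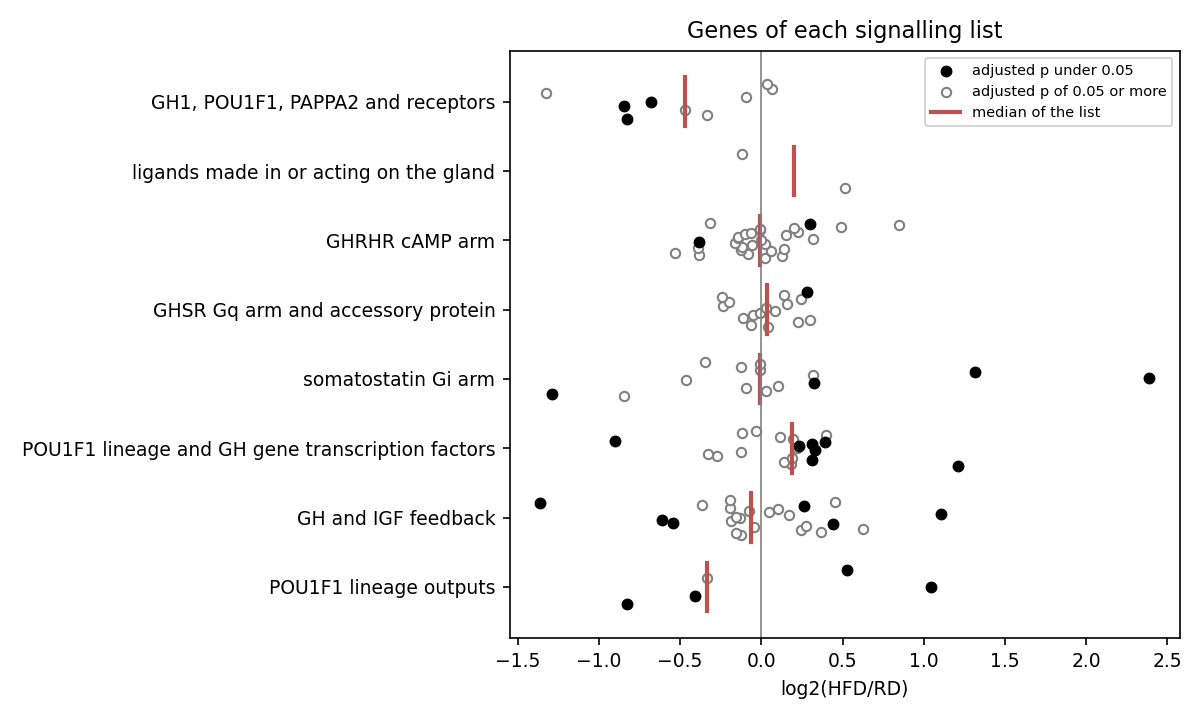
The log2(HFD/RD) of every tested gene in each list, one point per gene, filled where the adjusted p is under 0.05; the red line is the median of the list. The list medians lie between -0.47 and 0.20, and KCNJ5 (2.39) and PAPPA (-1.36) are the farthest points on either side. KCNJ5 passed the filter on low counts through HFD alone.

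Of the 20 called genes in the lists of arms, factors and feedback, 14 rose and 6 fell. The 14 include KCNJ5, which was tested only because it was high in HFD. Of the 20 genes, 4 (GNAI1, KCNJ9, IGF2R and PAPPA) passed whichever of the 6 libraries was left out. GH1, POU1F1 and TSHB also passed in each of those fits.

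The genes whose pattern over the 6 libraries was most like that of GH1 were sought among 10266 genes with a mean of at least 10 CPM, by the root mean square difference of log2 CPM after each gene's own mean was taken off. The closest was PTPN3, a protein tyrosine phosphatase gene (0.04), then TNS1, a focal adhesion gene (0.04), POU1F1 (0.06), the cell cycle kinase gene WEE1 (0.07) and the zinc finger gene ZBTB40 (0.08). PTPN3 was at 69.9 ± 1.41 CPM in HFD and 121 ± 9.33 CPM in RD, and TNS1 at 383 ± 18.4 CPM in HFD and 654 ± 65.0 CPM in RD (SD, n = 3 each). All 5 were low in the HFD libraries, and RD replicate 1 was the lowest RD library for each. This is the pattern of GH1, by which they were chosen. Among all tested genes POU1F1 ranked 3, PAPPA2 ranked 38 (0.12), and the other 6 of the 9 genes lay between 0.31 for GHSR and 0.62 for SSTR5.

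**Figure D5:**
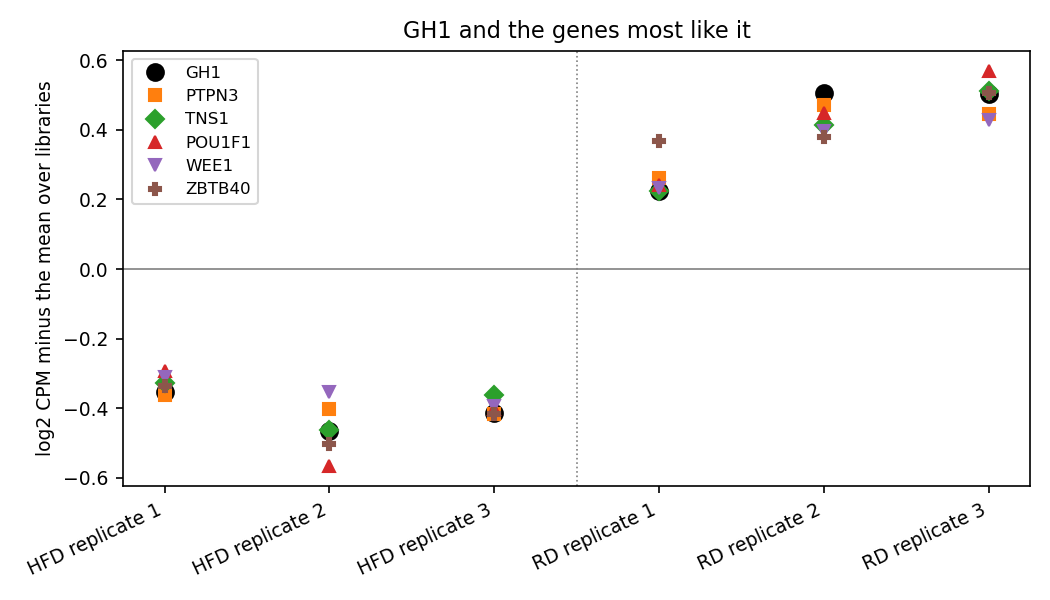
Log2 CPM minus the gene's mean over the 6 libraries for GH1 and the 5 genes most like it, HFD libraries left of RD libraries. All 6 genes lie between -0.57 and -0.29 in HFD and between 0.22 and 0.57 in RD.

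Library totals ran from 14185372 to 14384933 counts in HFD and from 15702214 to 18111345 counts in RD, and 1454 of the 13873 tested genes (10.5%) were called, 56.0% of them higher in HFD, or 72.5% with library totals as the only scaling. RD replicate 3 lay farthest out on the first principal component (36.2, against 9.68 and 18.4 for the other RD libraries and -24.4 to -19.1 for HFD). The tissue is labelled pituitary. Its summed somatotroph markers held 38260 to 41510 CPM in HFD and 61020 to 74390 CPM in RD, most of it GH1 itself (36569 to 39506 CPM in HFD and 58896 to 71584 CPM in RD). The 3 of the 6 somatotroph markers called lower were GH1, POU1F1 and PAPPA2. GHRHR (log2(HFD/RD) -0.34 ± 0.17), NEUROD4 (-0.33 ± 0.12) and DLK1 (-0.35 ± 0.13) were lower in estimate but not called. No marker of any list was at 0 in every library. Lactotroph markers summed to 10000 to 12630 CPM in HFD and 14130 to 15590 CPM in RD (1 of 3 lower). Most of that sum was PRL, while DRD2 (log2(HFD/RD) -0.03 ± 0.11) and ESR1 (0.06 ± 0.07) were not called. Thyrotroph markers summed to 529 to 570 CPM in HFD and 295 to 377 CPM in RD (3 of 4 higher). Gonadotroph markers summed to 1023 to 1107 CPM in HFD and 1345 to 1512 CPM in RD (3 of 4 lower, 1 higher). Most of that sum was FSHB (log2(HFD/RD) -0.39 ± 0.07). LHB (-0.36 ± 0.10) and GNRHR (-0.81 ± 0.14) were also lower, and NR5A1 was higher (0.49 ± 0.11). Corticotroph and melanotroph markers overlapped, at 6146 to 14340 CPM in HFD and 5924 to 10030 CPM in RD (1 of 6 higher). Fibroblast and mural markers held 317 to 403 CPM in HFD and 448 to 494 CPM in RD (1 of 4 lower). The called gene was COL1A2, at 176 ± 16.3 CPM in HFD and 284 ± 32.7 CPM in RD. Its fellow markers DCN (log2(HFD/RD) -0.28 ± 0.17), COL1A1 (0.16 ± 0.11) and PDGFRB (0.18 ± 0.09) were not called. Stem and folliculostellate markers held 121 to 137 CPM in HFD and 105 to 115 CPM in RD (1 of 4 higher). The called gene was ALDH1A2, at 68.9 ± 4.22 CPM in HFD and 51.3 ± 5.14 CPM in RD. SOX2 (log2(HFD/RD) -0.03 ± 0.11), SOX9 (-0.04 ± 0.15) and S100B (0.63 ± 0.56) were not called. Endothelial markers held 339 to 359 CPM in HFD and 317 to 338 CPM in RD (0 of 5 called). Macrophage markers (57.8 to 70.1 CPM in HFD and 48.0 to 68.4 CPM in RD) and posterior pituitary markers (4.72 to 8.85 CPM in HFD and 6.25 to 12.7 CPM in RD) overlapped, with 0 called. The part of these classes in the changes of GH1, POU1F1 and PAPPA2 was not tested.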

How the data were processed

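Pituitary RNA of male mice was sequenced after oligo-dT selection, per the labels' protocols, in 3 HFD and 3 RD libraries. The authors deposited raw counts of reads per gene symbol as whole numbers. The genome build was mm10, per the submitters' processing notes; which aligner, counter and annotation were used is not given in the sources used. Small counts (1 to 10) were even in 64.0% to 67.0% of cases and those above 200 in 48.9% to 50.4%, so read pairs may have been counted by mate and no counting intervals are given.

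Diet was tested over all rows by the two-sided quasi-likelihood test of edgeR 4.0.16 (R 4.3.3) with TMM factors and a filter on low counts (filterByExpr, minimum count 10, minimum total 15). Adjusted p-values (Benjamini-Hochberg) were called below 0.05. The fit was tested on simulated data, where the share of false calls lay somewhat above that threshold. That excess bears on the calls as a whole, and calls close to the threshold are the least secure. The SE is the size of the log2 change over the square root of F. Ratios within a library and the share of GH1 were compared by exact permutation. Symbols were matched apart from case, or for GH1 by synonym, to RefSeq names and placed on GENCODE M21 (mm10); levels per kb use the union of exons. No libraries of a group were identical. Alternatives were other scalings and filters, DESeq2 1.42.0, limma-voom 3.58.1, other thresholds, halved counts, a replicate block and each library left out.

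The genes and lists were chosen with earlier results of these data known. Named are the 9 genes and SSTR4, called genes of each list (the 6 with the smallest p where there are more), up to 2 abundant genes of a list that did not pass, PRL, TSHB and TRHR, and the 5 genes most like GH1. KCNJ3, KCNJ6 and some cell type markers are named as well. The values of 1 gene that the rule names are not reported here. Same-numbered libraries did not deviate together (correlations of -0.13, 0.00 and -0.10), so the numbers were not taken as pairs.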

Additional observations from a re-analysis of the deposited data

How the results depend on the processing

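The calls of GH1 and POU1F1 held in all 16 alternatives, with log2(HFD/RD) from -0.92 to -0.76 and from -0.94 to -0.77. The number of the 9 genes called was 3, and ran from 2 to 5 with a library left out, the 5 (without RD replicate 1) adding GHSR and SSTR2. The number of all genes called was 807 with the replicate block, 411 at a threshold of 0.01 and 2345 at 0.10, and ran from 431 to 1523 with a library left out. With library totals as the only scaling 72.5% of calls were higher in HFD, against 56.0% in the reported fit.

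With a library left out, the log2(HFD/RD) of SSTR1 ran from -0.27 to 0.10 (0.02 without RD replicate 1), of SSTR3 from -0.070 to 0.16, and of SSTR5 from -0.19 to 0.55 (-0.16 without RD replicate 1 and -0.12 without HFD replicate 1). The GH1 to POU1F1 difference ran from -0.025 to 0.056 and the GHRHR to GHSR difference from -0.24 to 0.38. In the cyclic AMP list 2 genes were called, 1 with DESeq2's size factors, 1 with the replicate block, 0 at 0.01, 6 at 0.10 and from 0 to 4 with a library left out. In the Gq list 1 was called, 2 with upper-quartile scaling, 3 with library totals, 0 with the replicate block, 0 at 0.01, 3 at 0.10 and from 0 to 1 with a library left out. In the Gi list 4 were called, 2 at 0.01 and from 2 to 5 with a library left out. Among transcription factors 7 were called, 3 with the replicate block, 0 at 0.01 and from 0 to 5 with a library left out. In the feedback list 6 were called, 2 at 0.01 and from 2 to 7 with a library left out. Among the lineage outputs 4 were called, 2 at 0.01 and from 2 to 4 with a library left out. Among genes of at least 50 CPM, 3 of the 5 genes most like GH1 remained, because the means of WEE1 and ZBTB40 over all libraries lie under that level. The causes of the other shifts were not tested. A library left out and a stricter threshold by their construction leave less power. Depth was least for SSTR2 (26 to 156 counts) and SSTR4 (12 to 40).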
